A study of Mus musculus with 2 samples.

Results

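A set of 10 genes of T cell identity and effector function, Cd3d, Cd3g, Trbc2, Ccl5, Nkg7, Ms4a4b, Cd52, Pdcd1, Plac8 and AW112010, was followed in single cells of the mouse hippocampus. The genes were taken by name as 10 of the 13418 genes listed in either library, and all 10 were listed in both. A T cell was any cell barcode with at least 3 unique molecular identifiers (UMIs, each marking 1 captured transcript) summed over Cd3d, Cd3g and Trbc2. This gate held 174 of 5443 barcodes in the wt library and 225 of 4572 in the GlaKO library. Because Cd3d, Cd3g and Trbc2 made the gate, their values inside it describe the gate, and their levels outside it are capped by it at 2 UMIs a cell. The other 7 genes took no part in it.

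The libraries came from dissociated hippocampi of GlaKO mice, a model of Fabry disease in which alpha-galactosidase A of the lysosome is knocked out, and of wt littermates. Mice of both genotypes were 57 weeks old and had been perfused to clear the blood, and the dissociated cells were cleared of debris and sorted with a dye that marks dead cells before 3' droplet sequencing. Each genotype had 1 library, so there is no replicate, no test and no p-value, and how many mice went into each is not given in the sources used here. Every interval is a 95% interval for counting error alone, and none covers the spread between mice or between libraries. Intervals of levels, of their ratios and of shares of UMIs take UMIs as independent. They are too narrow where a few cells hold most UMIs of a gene. Intervals of shares of cells take the cells of 1 library as independent. Gla was read at 12.4 CPM (the UMIs of a gene scaled to a total of 1000000) in the wt library (397 UMIs) and 7.42 CPM in the GlaKO library (222 UMIs). The altered part of the Gla allele is not given in the sources used here, and 3' counts may lie outside it, so these values do not check the genotype.

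A T cell is defined by its antigen receptor, whose 2 variable chains sit in the membrane with the invariant CD3 chains that carry the signal inward. Effector T cells, above all those of the CD8 lineage, release chemokines and cytotoxic granules, while inhibitory receptors such as PD-1 restrain them. In the brain, T cells are sparse, are found mostly at the borders and in the parenchyma in small numbers, and are known to grow in number with age.

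T cells were 3.20% of wt barcodes (2.75 to 3.70%) and 4.92% of GlaKO barcodes (4.31 to 5.59%). Choroid plexus epithelium, gated by its own markers, held 2531 wt and 770 GlaKO cells. Outside it, T cells were 5.98% of wt (5.14 to 6.90%) and 5.92% of GlaKO cells (5.19 to 6.72%). The larger share in GlaKO was therefore seen with the choroid plexus cells counted and not without them. The gate cut at a sparse place: 10 wt and 5 GlaKO cells had exactly 3 UMIs of the gate genes, and 2 and 1 cells had exactly 2. Of the cells with exactly 3, 7 of 10 and 4 of 5 also passed a second gate made from genes outside the 10, and none of those with exactly 2 did. In all, 137 wt and 203 GlaKO T cells had 10 or more. The second gate (Cd3e, Trac, Trbc1, Lck, Lat, Cd2 and Cd5) took 171 wt and 224 GlaKO cells, of which 168 and 222 were also in the first. A UMI of Cd8a or Cd8b1, the 2 chains of the CD8 co-receptor, was seen in 83.9% of wt T cells (77.6 to 89.0%) and 80.0% of GlaKO T cells (74.2 to 85.0%), and in 0.266% and 0.391% of other cells. Cd4 was not analysed here, so the cells without a CD8 UMI were given no lineage.

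T cells held 765112 UMIs in wt and 1359863 in GlaKO, with a median per cell of 4268.5 and 5294. Deeper cells show a UMI of any gene more often, so shares of cells are also given after each cell was thinned at random to 1000 UMIs. The libraries shared 6 barcode sequences, none of them a T cell. Of the T cells, 24 in wt (13.8%) and 41 in GlaKO (18.2%) also passed the gate of another cell class, mostly microglia, oligodendrocytes and astrocytes, and in GlaKO these had a median of 8165 UMIs against 4977.5 in the rest. Summed over 6 astrocyte markers, T cells held 212 CPM in wt and 763 CPM in GlaKO. Of the 4 listed B cell markers, Cd79a, Cd79b and Ebf1 were at 0 in wt T cells, and the list summed to 2.61 and 11.8 CPM. The listed border macrophage markers Mrc1, Pf4 and Ms4a7 were at 0 in T cells of both libraries. The natural killer list summed to 354 and 367 CPM over the 4 wt and 3 GlaKO markers listed, among them Eomes, Tyrobp and Fcer1g, which are not specific to those cells.

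The invariant chains Cd3d and Cd3g, which couple the receptor to its kinases, lie head to head on chromosome 9 of GRCm38. Cd3d runs on the plus strand (chr9:44981786-44987339) and Cd3g on the minus strand (chr9:44969572-44980431), with 1355 bases between their starts. The 2 promoter windows are shown because the genes were read together in the same cells. Each spans 250 bases before to 50 after the start (RefSeq, GRCm38.p6), and capitals mark AGGAAG, the core read by ETS factors, CAGNTG, the E-box, and TGGAAA, the core read by NFAT, on either strand.
Cd3d, chr9:44981536-44981835, plus strand: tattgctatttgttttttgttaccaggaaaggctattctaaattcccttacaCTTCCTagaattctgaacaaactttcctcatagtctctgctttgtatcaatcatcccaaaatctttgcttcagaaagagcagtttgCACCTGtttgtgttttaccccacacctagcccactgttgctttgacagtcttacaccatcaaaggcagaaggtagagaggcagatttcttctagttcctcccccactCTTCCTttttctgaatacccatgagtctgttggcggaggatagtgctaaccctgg
Cd3g, chr9:44980382-44980681, minus strand: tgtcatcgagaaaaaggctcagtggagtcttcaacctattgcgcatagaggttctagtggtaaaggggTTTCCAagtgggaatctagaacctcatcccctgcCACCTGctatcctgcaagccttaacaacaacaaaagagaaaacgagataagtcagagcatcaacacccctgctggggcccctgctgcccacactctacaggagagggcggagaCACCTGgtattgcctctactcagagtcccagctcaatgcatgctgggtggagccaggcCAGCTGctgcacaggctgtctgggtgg
The Cd3d window held 2 matches to AGGAAG and 1 to CAGNTG, and the Cd3g window 3 to CAGNTG and 1 to TGGAAA. No match to TGTGGT, the RUNX core, was in either. Among 32851 promoter windows of this length, 35.4% held AGGAAG, 51.4% CAGNTG, 21.4% TGGAAA and 16.8% TGTGGT, so each of these letter runs is common, and a match is a description of the window. RefSeq windows were matched for 7 of the 10 genes.

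Cd3d had 782 UMIs in wt T cells (1022 CPM, median 4 a cell, highest 13) and 1261 in GlaKO (927 CPM, median 5, highest 22). Cd3g had 864 (1129 CPM, median 5, highest 17) and 1725 (1269 CPM, median 6, highest 49). The per-cell ranges of the 2 libraries overlapped for both genes. The log2 ratio of GlaKO over wt CPM was -0.14 for Cd3d (-0.27 to -0.01) and 0.17 for Cd3g (0.05 to 0.29). Both chains were seen together in 86.2% of wt T cells (150) and 96.0% of GlaKO T cells (216), and in 43.1% and 45.8% after thinning. Over all 5443 wt and 4572 GlaKO cells, Cd3g was the gene most like Cd3d, with a mean Pearson r of 0.91 over the 2 libraries. T cells against all other cells largely make such an r, and all cells of a library share its depth and free RNA.

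Trbc2 encodes a constant region of the receptor's beta chain, and a beta chain uses either this gene or its near copy Trbc1. They lie 6849 bases apart on the plus strand of chromosome 6, Trbc1 at chr6:41538218-41539881 and Trbc2 at chr6:41546730-41548352. A 3' count can tell 2 copies apart only where their sequences differ, so the last 143 coding bases, all those after the shared first exon, are shown with the differing bases in capitals (GENCODE M21).
Trbc1: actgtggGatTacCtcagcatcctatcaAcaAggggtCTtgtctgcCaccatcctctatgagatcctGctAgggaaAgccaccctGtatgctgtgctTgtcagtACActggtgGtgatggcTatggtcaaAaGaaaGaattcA
Trbc2: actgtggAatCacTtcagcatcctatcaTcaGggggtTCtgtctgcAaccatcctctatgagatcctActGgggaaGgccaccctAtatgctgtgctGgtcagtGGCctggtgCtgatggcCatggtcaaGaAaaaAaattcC
The 518 coding bases were 95.6% identical, with 23 differences, of which 22 fell in this stretch and 1 in the 375 bases of the first exon. After the stop codon, 216 bases of Trbc1 and 171 of Trbc2 shared no run longer than 8 bases. How the authors' counting treated reads from the first exon is not given in the sources used here, so the split between the copies is uncertain to that extent.

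Trbc2 had 873 UMIs in wt T cells (1141 CPM, median 4 a cell, highest 27) and 1927 in GlaKO (1417 CPM, median 6, highest 46). Trbc1 had 619 (809 CPM) and 750 (552 CPM). The 2 copies differed in opposite directions: the log2 ratio was 0.31 for Trbc2 (0.20 to 0.43) and -0.55 for Trbc1 (-0.71 to -0.40). Trbc2 made up 58.5% of the UMIs of both copies in wt (56.0 to 61.0%) and 72.0% in GlaKO (70.2 to 73.7%). UMIs of the same cell are not independent in which copy they come from, so these intervals are too narrow. Trbc2 was part of the gate and Trbc1 was not. Under the gate from other genes, which held Trbc1 instead, the Trbc2 ratio was 0.29.

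Single cells fell along the whole range of this share. Among T cells with at least 5 UMIs of the 2 copies, 35 of 129 wt cells (27.1%) and 81 of 185 GlaKO cells (43.8%) had at least 90% Trbc2. At the other end 5 (3.88%) and 3 (1.62%) had at least 90% Trbc1, and 69.0% and 54.6% lay between. Between the ends lay the larger group in both libraries, and the Trbc2 end was fuller than the Trbc1 end in both. Trbc2 UMIs counted toward the gate and Trbc1 UMIs did not, so the gate can itself favour the Trbc2 end. The share per cell was not taken under the gate from other genes.

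**Figure D1:**
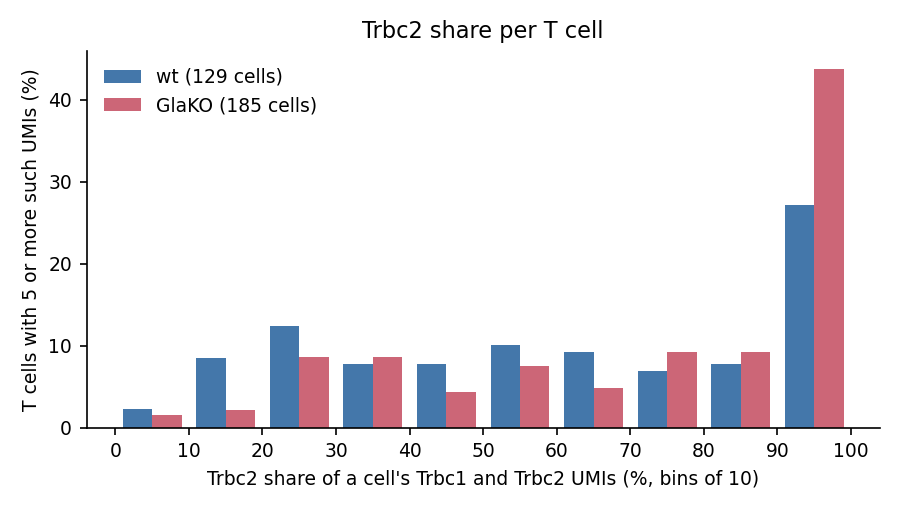
Share of Trbc2 among the Trbc1 and Trbc2 UMIs of each T cell (x axis, percent, bins of 10) against the percent of T cells with at least 5 such UMIs (y axis), with 129 wt cells in blue and 185 GlaKO cells in red. The bin from 90 to 100% is the tallest in both libraries, at 27.1% of wt and 43.8% of GlaKO cells.

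The other genes of the receptor and its near signalling had a median ratio close to equal levels, as did all genes compared. Of 18 genes on that list, 16 reached 100 UMIs over both libraries, with a median log2 ratio of -0.02, against 0.07 over all 2927 genes compared. None of the 16 differed by 1.5-fold, where 6.35% of all genes were higher and 1.57% lower by that much. With 16 genes this is near the share of all genes. Trbc1 alone had an interval that left out equal levels, where 12.5% of all genes lay wholly above and 7.04% wholly below. Ptprc, the CD45 phosphatase of leukocytes, had 914 CPM in wt and 904 in GlaKO. Trac, the alpha chain's constant region, had 684 and 653 CPM, and Cd3e, a further CD3 chain, 572 and 612 CPM. Cd8a (600 and 563 CPM) and Cd8b1 (682 and 688 CPM) also had intervals that included equal levels. Cd5 was listed for GlaKO alone, so it has no ratio.

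Ccl5 encodes a chemokine that draws T cells and monocytes, and is a hallmark of memory and effector CD8 cells (chr11:83525778-83530518, minus strand). It had 5133 UMIs in wt T cells, or 6709 CPM, with a median of 25 and a highest of 168 in a cell. In GlaKO it had 8161 UMIs, or 6001 CPM, with a median of 30 and a highest of 189. The median cell was higher and the CPM lower in GlaKO, whose T cells were also deeper. The log2 ratio was -0.16 (-0.21 to -0.11), short of 1.5-fold. It was -0.08 (-0.14 to -0.03) without the T cells that also passed another class's gate. Ccl5 was seen in 85.6% of wt and 89.3% of GlaKO T cells, and after thinning in 81.0% and 84.0%. Of the cells, 127 in wt and 174 in GlaKO had 10 or more UMIs, 22 and 27 had 1 to 9, and 25 and 24 had none.

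In cell classes that should lack it, Ccl5 was met more often than any other of the 10 genes. It was seen in 3.66% of wt cells (164 of 4476) and 3.76% of GlaKO cells (125 of 3325) of the 5 neural and epithelial classes (choroid plexus epithelium, oligodendrocytes, their precursors, astrocytes and neurons), with at most 2 UMIs in a cell, and after thinning in 0.894% and 0.842%. Their summed level was 0.0972% and 0.0984% of that in T cells. For Nkg7, which took no part in the gate, the same quotient was 0.0452% and 0.0582%. Whether these Ccl5 UMIs came from free RNA or from the cells themselves was not tested. In microglia Ccl5 was seen in 7.48% (wt) and 5.19% (GlaKO) of cells at 15.3 and 8.77 CPM, and after thinning in 2.35% and 0.80%.

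Nkg7 encodes a membrane protein of cytotoxic granules (chr7:43437073-43438249, plus strand). It had 1241 UMIs in wt T cells (1622 CPM, median 6 a cell, highest 23) and 2000 in GlaKO (1471 CPM, median 8, highest 46), a log2 ratio of -0.14 (-0.24 to -0.04). Nkg7 was seen in 90.8% and 91.6% of T cells and in 0.447% and 0.541% of neural and epithelial cells, and after thinning in 71.8% and 68.9% of T cells. Nkg7 went with Ccl5: both were seen in 83.9% of wt T cells (77.6 to 89.0%) and 88.0% of GlaKO T cells (83.0 to 91.9%), and after thinning in 65.5% and 63.6%. Of T cells with Ccl5, 98.0% (wt) and 98.5% (GlaKO) also had Nkg7. Of those without, 48.0% and 33.3% did, although their median depth of 4680 and 5019 UMIs was close to the 4222 and 5326 of cells with Ccl5. Nkg7 was also the gene most like Ccl5 over all cells, with a mean r of 0.89.

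Ms4a4b encodes a small membrane protein of the CD20 family found on T cells (chr19:11443553-11467055, plus strand). It had 1069 UMIs in wt (1397 CPM, median 6 a cell, highest 24) and 2097 in GlaKO T cells (1542 CPM, median 9, highest 35), a log2 ratio of 0.14 (0.04 to 0.25). Its UMIs were seen in 95.4% and 96.9% of T cells, in none of 468 wt microglia, which allows a share of up to 0.641%, and in 0.533% of 751 GlaKO microglia. After thinning it was seen in 66.1% of wt and 75.1% of GlaKO T cells. T cells held 97.7% and 98.7% of its UMIs, and it was seen in 14 other wt cells and 25 other GlaKO cells, with up to 4 and 2 UMIs.

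Cd52 encodes a short glycoprotein anchored on the surface of lymphocytes and other leukocytes (chr4:134082448-134095082, minus strand). It had 1524 UMIs in wt T cells (1992 CPM, median 8 a cell, highest 34) and 3357 in GlaKO (2469 CPM, median 12, highest 134). The log2 ratio of 0.31 (0.22 to 0.40) was 1.24-fold. After thinning it was 0.42, and Cd52 was then seen in 77.0% of wt (70.0 to 83.0%) and 87.6% of GlaKO T cells (82.5 to 91.6%). Cd52 was the least T cell bound of the highly detected genes. T cells held 48.7% of its wt UMIs and 54.2% of its GlaKO UMIs, and microglia 31.8% and 33.1%. It was seen in 61.5% of wt and 66.4% of GlaKO microglia, at 390 and 418 CPM, and in all of the 10 wt and 17 GlaKO B cells. The order of the microglial shares turned after thinning, so none is read from them. In neural and epithelial cells it was seen in 1.94% and 2.38%. Its nearest genes over all cells were Rac2, Psmb8 and Srgn, with mean r of 0.74, 0.72 and 0.72, all of them genes of many leukocytes.

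AW112010 is annotated as a long intergenic noncoding RNA (chr19:11047612-11055808, minus strand) and is known as an interferon-induced transcript of leukocytes. It had 1066 UMIs in wt T cells (1393 CPM, median 5 a cell, highest 29) and 2037 in GlaKO (1498 CPM, median 7, highest 64). The log2 ratio of 0.10 had an interval that included equal levels (-0.00 to 0.21). A UMI of it was seen in 95.4% and 96.4% of T cells, and after thinning in 71.8% and 69.8%. The thinned ratio was 0.28 (0.04 to 0.52). Outside them it was clearest in endothelium, in 31 of 68 wt cells (45.6%, 33.5 to 58.1%) at 262 CPM. No GlaKO cell passed the endothelial gate, so this could not be set against GlaKO. In microglia it was seen in 12.4% of cells in both libraries (3.21% and 2.80% after thinning), against 0.648% and 1.14% of neural and epithelial cells.

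**Figure D2:**
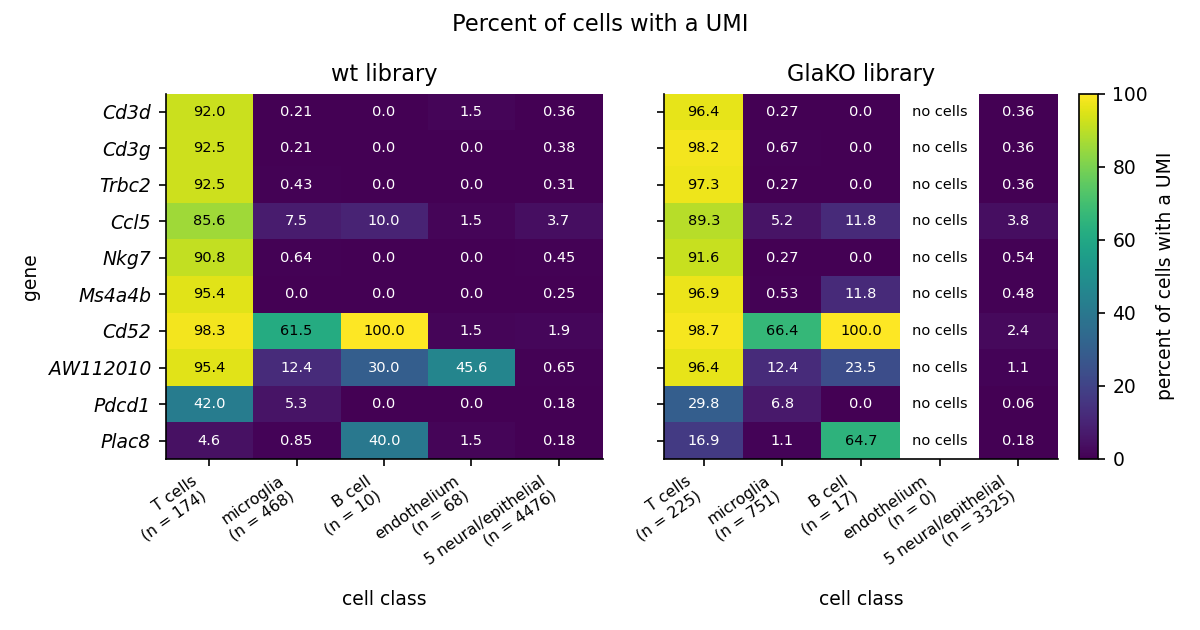
Percent of cells with at least 1 UMI of each gene (rows) in T cells and 4 other cell classes (columns), with the wt library on the left, the GlaKO library on the right and the number of cells under each column. Cd52 is seen in 61.5% and 66.4% of microglia and in all B cells, AW112010 in 45.6% of wt endothelium, and Plac8 in 40.0% and 64.7% of B cells. Nkg7 is seen in 0.641% and 0.266% of microglia.

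Plac8 was past 1.5-fold higher in GlaKO T cells and Pdcd1 past 1.5-fold lower, and the other 8 genes were within 1.5-fold. Of the 2927 genes compared, 6.35% were at least 1.5-fold higher and 1.57% at least 1.5-fold lower. The 10 genes had a median log2 ratio of 0.12 and all genes of 0.07. By the interval, 5 of the 10 genes were higher and 4 lower, against 12.5% and 7.04% of all genes. Of these calls, 2 higher and 1 lower came from the 3 gate genes, whose values describe the gate. The 7 genes outside the gate gave 3 higher and 3 lower, with a median log2 ratio of 0.10. Apart from Pdcd1 and Plac8 the 10 are deeply counted genes, and a deeper count gives a narrower interval. Several of these interval calls did not hold with cells thinned to 1000 UMIs, which leaves fewer UMIs to count: the intervals of Cd3d (-0.29 to 0.29), Cd3g (-0.24 to 0.27), Nkg7 (-0.26 to 0.19) and Ms4a4b (-0.01 to 0.48) then included equal levels, and that of AW112010 no longer did, so that 4 genes were higher and 2 lower. Without T cells of another class's gate Cd3d also included equal levels (-0.24 to 0.04) and AW112010 did not (0.03 to 0.26). With a gate of at least 5 UMIs Cd3g included them (-0.03 to 0.21), and with a gate of at least 2 AW112010 did not (0.00 to 0.22). Trbc2, Ccl5, Cd52, Pdcd1 and Plac8 kept their interval calls under each alternative that gave an interval.

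**Figure D3:**
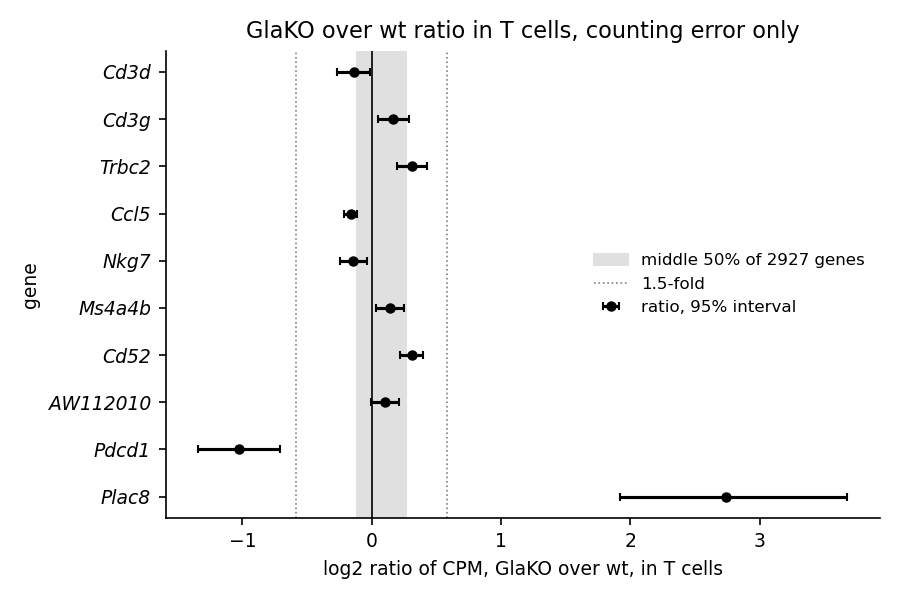
Log2 ratio of GlaKO over wt CPM in T cells (x axis) for each of the 10 genes (y axis), with 95% counting intervals, 1.5-fold as dotted lines and the middle 50% of the 2927 genes compared in grey. Pdcd1 at -1.03 and Plac8 at 2.74 lie outside the dotted lines, and the other 8 genes lie between -0.16 and 0.31.

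Pdcd1 encodes PD-1, the inhibitory receptor that dampens receptor signalling after repeated stimulation (chr1:94038305-94052553, minus strand). In wt T cells it had 181 UMIs, or 237 CPM (203 to 274), in 73 of 174 cells, with a highest of 14 in a cell. In GlaKO T cells it had 158 UMIs, or 116 CPM (98.8 to 136), in 67 of 225 cells, with a highest of 10. The wt level and the wt share of cells were the higher, and the ranges per cell overlapped. The log2 ratio was -1.03 (-1.34 to -0.71), or 2.04-fold lower in GlaKO. PD-1 transcripts were seen in 42.0% of wt T cells (34.5 to 49.7%) and 29.8% of GlaKO T cells (23.9 to 36.2%). GlaKO T cells were the deeper ones, and after thinning the shares were 19.0% (13.4 to 25.6%) and 8.89% (5.51 to 13.4%). Of cells with at least 3 UMIs, wt had 28 and GlaKO 20. The 10 cells with most Pdcd1 held 33.7% of its wt UMIs and 38.6% of its GlaKO UMIs.

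The Pdcd1 difference was smaller, at -0.84 (-1.19 to -0.49), without T cells that also passed another class's gate. Among T cells with a CD8 UMI, Pdcd1 had 264 CPM in wt and 127 in GlaKO, and among those without, 91.1 and 64.8 CPM. Of the 4 listed inhibitory receptors and regulators that reached 100 UMIs, Tox, a transcription factor of chronically stimulated T cells, was also lower (148 and 100 CPM, log2 ratio -0.56, -0.93 to -0.19). Nr4a1, induced by receptor signalling, was higher (0.31, 0.03 to 0.60), and Nr4a2 (0.01) and Bhlhe40 (-0.08) had intervals that included equal levels. By their intervals 1 of the 4 was thus higher and 1 lower, where 12.5% and 7.04% of all genes were. Lag3, a further inhibitory receptor, had 27 and 35 UMIs.

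Cells with a Pdcd1 UMI differed from the other T cells in the same direction in both libraries in several genes. Tox was higher in them than in the other T cells, at 208 against 108 CPM in wt (log2 ratio 0.94) and 176 against 65.3 CPM in GlaKO (1.43). Cxcr6, a chemokine receptor of resident T cells, was higher too (0.68 and 0.66), as was Tcrg-C2, a gamma chain constant region (1.66 and 1.29). Genes of naive and recirculating cells were lower: Tcf7 by log2 ratios of -1.05 and -1.07, and Klf2 by -1.18 and -0.76. AW112010 was seen in all 73 wt and 67 GlaKO cells with Pdcd1. The split is made on a sparsely counted gene, so cells without a UMI can include cells that transcribe it, and median depth was nearly equal with and without a UMI (4281 and 4256 in wt, 5154 and 5318 in GlaKO).

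Outside T cells, Pdcd1 was seen in microglia. Of 468 wt microglia, 25 (5.34%, 3.49 to 7.78%) had a UMI, and of 751 GlaKO microglia 51 (6.79%, 5.10 to 8.83%). After thinning the order turned, at 1.71% and 1.33%, so no order between the libraries is read from these shares. In neural and epithelial cells the shares were 0.179% and 0.0602%. Of these microglia, 1 GlaKO cell and no wt cell had a UMI of the gate genes, and 1 wt and 2 GlaKO cells had a UMI of Ccl5. The level in microglia was 12.5 CPM in wt and 13.9 CPM in GlaKO, 5.30% and 11.9% of that in T cells. For Nkg7 the same quotient in microglia was 0.0725% and 0.0277%. Microglia held 14.1% of all wt and 29.8% of all GlaKO Pdcd1 UMIs.

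Plac8 encodes a small cysteine-rich protein of lymphoid and myeloid cells (chr5:100553725-100572245, minus strand). In wt T cells it had 13 UMIs, or 17.0 CPM (9.05 to 29.1), in 8 of 174 cells, with at most 3 in a cell. In GlaKO T cells it had 154 UMIs, or 113 CPM (96.1 to 133), in 38 of 225 cells, with at most 23 in a cell. No wt T cell and 12 GlaKO T cells had 5 or more. Of the cells with Plac8, 3 in wt and 2 in GlaKO had no Cd3d UMI, and 2 in each had no Cd3g UMI. In GlaKO the 3 T cells with exactly 5 UMIs of the gate genes passed on Trbc2 alone. Of these, 2 cells held 13 of the Plac8 UMIs, and whether they were T cells was not tested further. The log2 ratio of 2.74 (1.92 to 3.68), or 6.67-fold, was among the highest of the 2927 genes compared, below those of Gja1 (3.29) and Hist1h1b (3.16). Gja1 is one of the astrocyte markers whose sum was 212 CPM in wt and 763 CPM in GlaKO T cells, and its part in other differences was not tested. Without T cells that passed another class's gate the Plac8 ratio was 2.62 (1.76 to 3.61).

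The Plac8 difference rested on few cells. The share of T cells with a UMI was 4.60% in wt (2.01 to 8.86%) and 16.9% in GlaKO (12.2 to 22.4%), and after thinning 0.575% (0.0145 to 3.16%) and 5.78% (3.11 to 9.68%). In GlaKO 1 cell held 14.9% of the UMIs and 10 cells held 66.2%. Leaving out the highest cell of each library gave 2.88. The true error is therefore wider than the interval.

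GlaKO T cells with a Plac8 UMI differed from the other 187 in effector genes. Gzmb, a granzyme, had 779 against 175 CPM (log2 ratio 2.15, 1.86 to 2.44). Klrd1, a receptor of cytotoxic cells, had 440 against 172 CPM (1.35), and S100a4, a calcium-binding protein of migrating cells, 1408 against 672 CPM (1.07). Tox (11.2 against 122 CPM) and Eomes, a transcription factor of memory cells (26.1 against 150 CPM), were lower. Pdcd1 was seen in 6 of the 38 cells with Plac8 (15.8%) and in 32.6% of those without. In wt none of the 8 cells with Plac8 had Pdcd1. With 8 cells the wt side of this split is too thin to compare. Cells with Plac8 were deeper in both libraries, at a median of 6149.5 against 4223.5 UMIs in wt and 6028.5 against 5092 in GlaKO.

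T cells held 16.5% of its wt UMIs and 39.6% of its GlaKO UMIs. It was seen in 4 of 10 wt and 11 of 17 GlaKO B cells, at 230 and 677 CPM. Cells that passed no gate held 40.5% and 35.5% of its UMIs, with up to 28 and 53 in a cell. The level in cells of no gate was 34.9 CPM in wt and 104 CPM in GlaKO, and in microglia 1.57 and 7.34 CPM, with up to 12 UMIs in a GlaKO cell. The summed CPM of Plac8 was thus also higher in GlaKO B cells, microglia and cells of no gate. It was not higher in neural and epithelial cells, where 0.179% and 0.180% of cells had a UMI, at 0.623 and 0.271 CPM. Single cells carried much of these sums. In cells of no gate 1 cell held 87.5% of the wt UMIs, and in microglia 1 cell held 33.3% of the GlaKO UMIs. In B cells 1 cell held 50.0% (wt) and 34.0% (GlaKO). The shares of microglia with a UMI had overlapping intervals, at 0.855% (0.233 to 2.17%) and 1.07% (0.461 to 2.09%). These classes hold few cells with Plac8, and their part in the T cell difference was not tested.

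**Figure D4:**
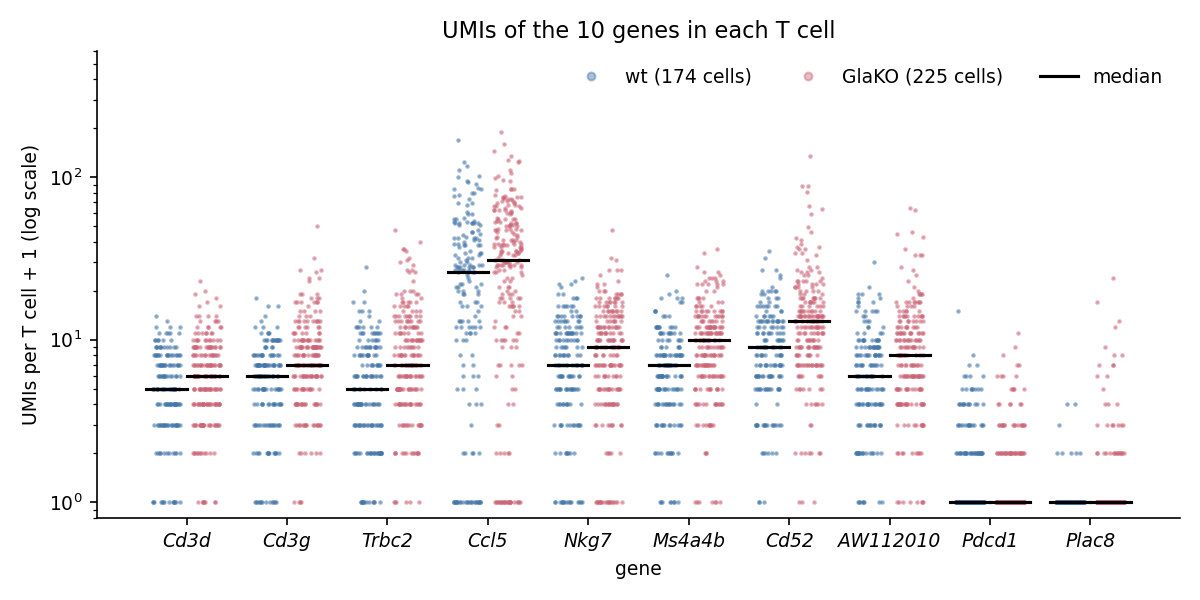
UMIs plus 1 of each gene in each T cell (y axis, log scale) by gene (x axis), with 174 wt cells in blue, 225 GlaKO cells in red and the median of each library as a black bar. The Ccl5 medians are 25 and 30 UMIs, the Pdcd1 and Plac8 medians are 0 in both libraries, and 12 GlaKO cells have at least 5 Plac8 UMIs where no wt cell does.

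Most T cells carried most of the 10 genes. The median T cell had a UMI of 8 of them in both libraries, and 135 wt (77.6%) and 190 GlaKO T cells (84.4%) had at least 8. Part of this count is set by the gate, since 3 of the 10 genes make it. All 3 were seen in 81.0% of wt and 93.8% of GlaKO T cells. GlaKO T cells were also deeper, and these counts were not thinned. Ccl5, Nkg7, Ms4a4b, Cd52 and AW112010 were seen together in 82.2% of wt (75.7 to 87.6%) and 84.9% of GlaKO T cells (79.5 to 89.3%), and in 2 and 1 other cells. All 10 were seen in no wt and 5 GlaKO cells. No wt T cell had both Pdcd1 and Plac8, which allows a share of up to 1.72%, and 6 GlaKO T cells did (2.67%, 0.985 to 5.71%).

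The T cells without a Ccl5 UMI, 25 in wt and 24 in GlaKO, were unlike the rest in both libraries. Ccr7, the receptor that leads naive cells to lymph nodes, had 273 CPM in them in wt and 314 CPM in GlaKO, and the log2 ratio of the other T cells over them was -3.45 (-4.41 to -2.55) and -2.94 (-3.56 to -2.32). Klf2, a regulator of recirculation, had 1413 against 454 CPM and 1000 against 409 CPM. S1pr1, the receptor for leaving tissue, had 201 against 51.5 CPM and 467 against 136 CPM. Tcf7, Lef1 and Il7r, genes of naive and memory cells, were higher in them in both libraries as well. In the other direction Cd8a had 153 against 687 CPM in wt and 73.0 against 618 CPM in GlaKO, and Gzmk, a granzyme, 48.2 against 412 and 36.5 against 321 CPM. Cd52 was nearer level, at 1317 against 2123 CPM and 2204 against 2498 CPM. These are 24 or 25 cells of 1 library each, and a few cells can carry such a sum. Cells at the edge of the gate were more often without Ccl5. Of T cells with exactly 3 UMIs of the gate genes, 6 of 10 in wt and 3 of 5 in GlaKO had Ccl5, against 85.6% and 89.3% of all T cells. Of the cells without Ccl5, 4 in wt and 4 in GlaKO also had no Cd3d UMI. The part of such cells in these differences was not tested.

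**Figure D5:**
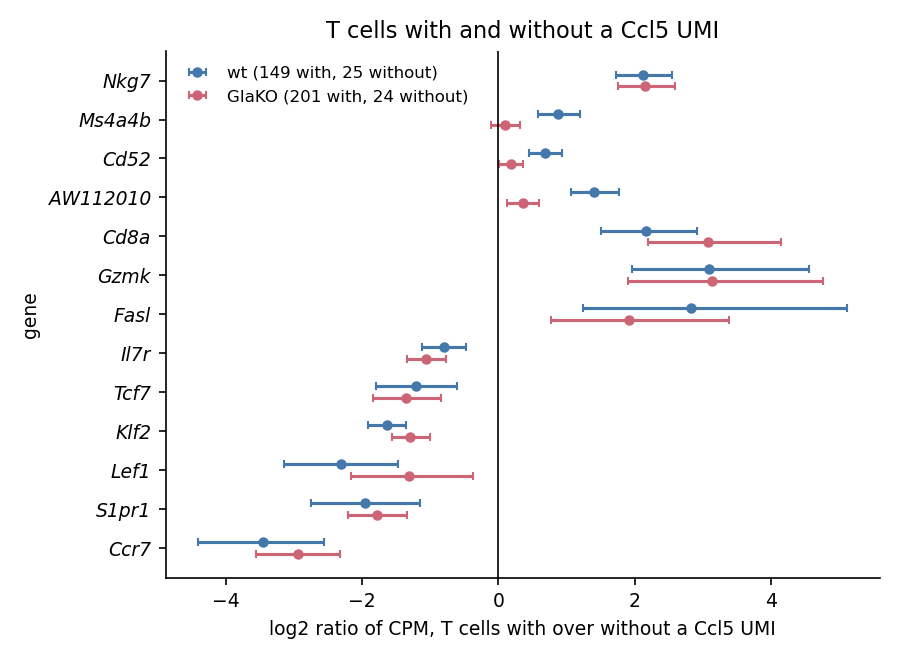
Log2 ratio of CPM in T cells with over T cells without a Ccl5 UMI (x axis) for 13 genes (y axis), in wt (blue, 149 and 25 cells) and GlaKO (red, 201 and 24 cells), with 95% counting intervals. Nkg7, Cd8a and Gzmk lie to the right and Ccr7, S1pr1 and Klf2 to the left of equal levels in both libraries.

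Ccl5 also differed by CD8. It had 7475 CPM in wt T cells with a UMI of Cd8a or Cd8b1 and 2624 CPM in those without, and 6740 and 2398 CPM in GlaKO, log2 ratios of 1.51 and 1.49. Nkg7 differed in the same direction, by less than in the split by Ccl5 (1.37 and 0.88 against 2.12 and 2.16), and Cd52 had intervals that included equal levels in both (0.18 and 0.05).

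Other effector and homing genes gave the surroundings of the 10. Of 18 cytotoxic and effector genes, 13 were compared, with a median log2 ratio of 0.06 against 0.07 over all genes. The number past 1.5-fold was 1 higher and 2 lower, where 6.35% and 1.57% of all genes were. Gzmb was past 1.5-fold higher (152 and 294 CPM, log2 ratio 0.96, 0.65 to 1.27), and Klrc1, an inhibitory receptor of cytotoxic cells (191 and 106 CPM, -0.85), and the chemokine Ccl3 (85.0 and 52.9 CPM, -0.68) were past it lower. By their intervals 3 of the 13 were higher, among them the chemokines Ccl4 (0.24) and Xcl1 (0.36), and 3 were lower. Of all genes, 12.5% were higher and 7.04% lower by their intervals. Of 12 tissue residence and homing genes compared, S100a4 alone was past 1.5-fold (474 and 818 CPM, 0.79), where 6.35% of all genes were higher by that much, and the list's median was 0.15. Of 7 naive and recirculating genes compared, S1pr1 alone was past it (75.8 and 169 CPM, 1.16), and the list's median was -0.03. Of all genes, 6.35% were higher and 1.57% lower by that much. By their intervals 1 of the 7 was higher and 2 were lower, Klf2 (-0.38) and Il7r (-0.23), where 12.5% and 7.04% of all genes were.

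The small membrane and interferon-responsive genes had the highest median of the 7 lists. Of 11 compared, 7 were higher, which is near the 60.3% of all genes. By their intervals 6 were higher and 1 lower, where 12.5% and 7.04% of all genes were, and such calls depend on how deeply a gene is counted. Past 1.5-fold were 2 higher and none lower, where 6.35% and 1.57% of all genes were. The median was 0.32 against 0.07 over all genes. Isg15, a ubiquitin-like protein induced by interferon, had 68.0 and 127 CPM (0.90, 0.45 to 1.38), and Ly6c2, a surface protein of memory CD8 cells, 212 and 331 CPM (0.64). Bst2, an interferon-induced membrane protein, had a log2 ratio of 0.34 and Ly6a, a surface protein of activated lymphocytes, 0.45, and Gimap3, a small GTPase of lymphocytes, had -0.31.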

How the data were processed

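The 2 files used here, 1 per library, hold raw counts of UMIs per gene and cell barcode as deposited by the authors. Reads were mapped to mm10, and Seurat 4 under R 4.1.3 and Cell Ranger 6.0.1 are listed, per the submitters' processing notes. Neither the annotation nor a filter on cells is given in the sources used here. Every barcode was kept. The libraries held 31929688 UMIs (wt, median 5054 a barcode) and 29914106 UMIs (GlaKO, median 6101).

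T cells were gated as described above, and other classes by at least 5 UMIs over a marker list, at least 2 of its markers and 3 times the sum of any other list. No clustering and no doublet caller was run. T cells that passed another class's gate were counted and left out in an alternative. UMIs were summed over gated cells. Genes listed in both libraries with at least 100 UMIs in T cells were compared. Ratios have exact conditional binomial intervals and shares exact Clopper-Pearson intervals, all 95%, and the limit for a count of 0 is 3 counts of the total. Cells were thinned to 1000 UMIs with a fixed seed. Genes most like a member were ranked by Pearson r of log-scaled UMIs over all cells. The ratio was checked on simulated library sums drawn with UMIs as independent, so the check does not cover spread between cells. All 10 members were described, and other genes were named from lists by role, from the genes most like a member and from the genes with the largest ratios. Some genes of the lists are not reported here by name. Members and lists were chosen with earlier results of these data known. A planned split of CD8 against CD4 T cells was replaced by one on CD8 alone, and splits by Ccl5, Pdcd1 and Plac8 were added after the data were seen. Python 3.11.15, numpy 2.4.6, scipy 1.17.1, pandas 2.3.3 and matplotlib 3.10.9 were used, with R 4.3.3 and edgeR 4.0.16 for TMM scaling.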

Additional observations from a re-analysis of the deposited data

How the results depend on the processing

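The log2 ratios of the 10 genes kept their sign under all 9 alternatives tried, in 90 combinations of gene and alternative, of which 81 moved by less than the counting interval. With cells thinned to 1000 UMIs the ratio was -0.00372 for Cd3d, 0.0147 for Cd3g, 0.45 for Trbc2, 0.42 for Cd52, -1.43 for Pdcd1, 0.28 for AW112010 and 3.88 for Plac8, the last on 1 wt UMI. For Ccl5 it was -0.0848 without T cells that passed another class's gate and -0.23 with TMM scaling. T cells were 5.98% of wt and 5.92% of GlaKO cells outside the choroid plexus gate. Thinning lowered the share of T cells with both Ccl5 and Nkg7 to 65.5% (wt) and 63.6% (GlaKO). The genes at least 1.5-fold higher, 186 of 2927, became 1289 of 8048 with a minimum count of 20, 16 of 519 with a minimum of 500, 17 of 483 after thinning, and 115 of 2223 without T cells of another gate, an alternative added after the data were seen. The genes at least 1.5-fold lower, 46, became 454, 5 and 10 under the first 3 of these, which compare different numbers of genes. No paired analysis was possible because each genotype had 1 library. The split of CD8 against CD4 T cells was not run, since Cd4 was not analysed here. A gate without Cd5, also added after the data were seen, took as many cells as the gate with it. It gave the same ratio for each of the 10 genes, so among the 9 alternatives it is no separate check. A summed depth of 765112 UMIs in wt T cells limits what can be seen of sparse genes: a gene with no UMI there could have up to 3.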
